A study of Mus musculus with 9 samples.

Results

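The insulin-like growth factor (IGF) system was measured in OB-6 cells, an osteoblastic line from mouse bone marrow, at 0, 30 and 60 min of parathyroid hormone (PTH). Its members here were the ligands Igf1 and Igf2, the receptors Igf1r and Igf2r, and the binding proteins Igfbp2 to Igfbp7, and every probe set named for exactly 1 of these genes was taken. That gave 14 of the 12488 probe sets on the array, from 9 genes. Igfbp5 had only a probe set that also carries another gene's symbol and is not described. Total RNA was hybridised to 1-colour arrays, with 3 arrays at each time, named replicates a, b and c. All 3 groups were the same line, and the 0 min arrays are its basal level. The labels state neither a dose nor how the cells were grown. None of the 9 arrays was of cells kept without PTH for 30 or 60 min, so PTH and time cannot be told apart. Nothing says whether the replicates were separate cultures, so p-values measure the spread between arrays, which may be technical.

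IGF1 and IGF2 are secreted peptides that act on the type 1 receptor, a tyrosine kinase that signals through insulin receptor substrates to PI3 kinase and Akt and through Ras to the MAP kinases. The type 2 receptor binds IGF2 and carries it to lysosomes, and the binding proteins hold the ligands in the medium or matrix and either limit or extend their action. Osteoblasts make and store IGFs in bone matrix. In rat osteoblasts, PTH and other agents that raise cAMP increase Igf1 transcription over hours through a C/EBP factor, and IGF1 takes part in the bone-forming response to PTH. The comparison addressed whether the genes of this system are among those that change within the first hour of PTH.

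None of the IGF system probe sets passed the test at 30 or 60 min. An intensity is the linear brightness of a probe set as deposited, and testing required more than 44.7, the 40th percentile of all intensities, on 3 or more of the 9 arrays. Of the 14 probe sets 9 met this, from 8 genes, and both probe sets of Igfbp3 did not. Fold changes are on the log2(intensity + 11.8) scale, which understates those of dim probe sets. By limma with Benjamini-Hochberg adjustment over all 7884 tested probe sets, 0 of 9 were called at 30 min, where 0.939% of all tested were called (0.482% higher, 0.457% lower), and 0 of 9 at 60 min, where 13.1% were (4.35% higher, 8.73% lower). At an unadjusted p under 0.05 there was 1 at 30 min, Igf1r, and there were 2 at 60 min, Igf1r and Igfbp6, against 17.9% and 32.8% of all tested. Between 60 and 30 min 0 of 9 were called and 0 had an unadjusted p under 0.05, against 0.0254% and 9.07% of all tested. Arrays of the PTH time and of 0 min did not overlap for 2 of the 9 at 30 min (1 higher, 1 lower) and for 2 at 60 min (1 higher, 1 lower), beside 30.6% and 40.7% of all tested. Between 60 and 30 min 1 of 9 did not overlap, lower, beside 11.6% of all tested, of which 5.06% were higher and 6.49% lower. In the F test for any change over the 3 times 0 were called and 2 had an unadjusted p under 0.05, against 4.64% and 26.3%. The lowest adjusted p of the members were 0.202 at 30 min and 0.0609 at 60 min, both of Igf1r. The median log2 fold change of the 9 was 0.09 at 30 min and -0.0013 at 60 min, beside 0.05 and 0.03 over all tested probe sets.

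Early response genes rose on the same arrays. Fos, an AP-1 subunit, averaged 698 ± 104 at 30 min, against 30.9 ± 3.45 at 0 min, and Nr4a1, an orphan nuclear receptor, 298 ± 44.6 at 60 min, against 44.0 ± 19.1 at 0 min (SD, n = 3 arrays each). Of 6 osteoblast markers with a probe set, 4 (Alpl, Col1a1, Col1a2 and Sparc) lay above 44.7 on all 9 arrays, while Pth1r, the PTH receptor, lay between 6.70 and 41.6 and so below it on every array. No array had any of 3 chondrocyte or 4 endothelial markers above that value. Of other cell types, 2 of 7 haematopoietic and osteoclast, 3 of 5 adipocyte and 1 of 5 muscle markers were above it on all 9 arrays. The arrays correlated with each other at 0.891 to 0.98 over the tested probe sets, and the lowest median correlation with the others, 0.938, was that of 60 min replicate b. Summed marker intensities at 60 min lay wholly above those at 0 min for 3 of the 6 cell types. Of all tested single probe sets 20% lay wholly higher at 60 min, and no such share was computed for sums. For osteoblast markers the sums ran from 14481 to 17115 at 60 min, against 12424 to 13848 at 0 min. Col1a1, Col1a2 and Sparc, each above 2959 on every array, made up most of these sums, while Ibsp lay between 38.2 and 119. Of the tested osteoblast markers, Ibsp had a log2 fold change of -0.80 at 60 min (limma adjusted p = 0.0576). Those of Alpl, Col1a1, Col1a2 and Sparc were positive, from 0.15 to 0.56. For adipocyte markers the sums ran from 620 to 692 at 60 min, against 571 to 610 at 0 min. Cebpa, the brightest of them, had a log2 fold change of 0.24 at 60 min (limma adjusted p = 0.135). The other tested adipocyte markers, Fabp4 and Pparg, stood at -0.09 (limma adjusted p = 0.763) and -0.14 (limma adjusted p = 0.643). For endothelial markers, each dim on every array, the sums ran from 81.1 to 95.3 at 60 min, against 29.3 to 45.3 at 0 min. The sums of muscle, haematopoietic and osteoclast, and chondrocyte markers overlapped between 60 and 0 min. Of the 15 tested markers 2 were called at 60 min by limma, beside 13.7% of 5936 genes (4.6% higher, 9.1% lower). Both were higher: Col1a1, a collagen chain of bone matrix (log2 fold change 0.56, adjusted p = 0.0499), and Ckm, muscle creatine kinase (0.86, adjusted p = 0.0197). The other tested muscle markers, Myod1 and Myog, had log2 fold changes of 0.24 (adjusted p = 0.499) and -0.53 (adjusted p = 0.279) by limma. The part of these markers in the values of the IGF system was not tested.

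Below are the windows at the transcription starts of the 3 members whose arrays separated from 0 min at some time. They are shown because several factors whose genes rose after 0 min, such as Fos and Nr4a1, bind known short motifs. Each holds 250 bases before and 50 after an annotated start, 5′ to 3′ on the gene's strand, from RefSeq on build GRCm38.p6. Capitals mark every match, on either strand, to the cAMP response element TGACGTCA or its shorter form TGACG, the AP-1 motif TGANTCA, the Egr motif GCGNGGGCG, the Nr4a motif AAAGGTCA, the C/EBP motif TTGCNNAA, the E-box CACGTG, the GC box GGGCGG or TATAAA. The shorter form lies within the full one, and the Egr motif can overlap the GC box. Igf1r is at chr7:67952007-67952306 (+ strand), Igfbp6 at chr15:102143936-102144235 (+ strand) and Igf1 at chr10:87860861-87861160 (+ strand).
Igf1r: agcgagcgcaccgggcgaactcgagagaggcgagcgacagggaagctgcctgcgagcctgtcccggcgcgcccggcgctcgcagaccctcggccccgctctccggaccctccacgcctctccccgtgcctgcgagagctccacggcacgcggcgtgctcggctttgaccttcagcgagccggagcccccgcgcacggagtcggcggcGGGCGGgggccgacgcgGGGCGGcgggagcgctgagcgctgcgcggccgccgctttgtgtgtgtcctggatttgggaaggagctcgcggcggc
Igfbp6: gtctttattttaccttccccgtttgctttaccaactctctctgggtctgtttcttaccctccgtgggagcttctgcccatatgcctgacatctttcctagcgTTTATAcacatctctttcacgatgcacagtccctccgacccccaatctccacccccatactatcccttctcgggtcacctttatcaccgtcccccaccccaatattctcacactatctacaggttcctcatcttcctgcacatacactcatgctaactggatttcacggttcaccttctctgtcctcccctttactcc
Igf1: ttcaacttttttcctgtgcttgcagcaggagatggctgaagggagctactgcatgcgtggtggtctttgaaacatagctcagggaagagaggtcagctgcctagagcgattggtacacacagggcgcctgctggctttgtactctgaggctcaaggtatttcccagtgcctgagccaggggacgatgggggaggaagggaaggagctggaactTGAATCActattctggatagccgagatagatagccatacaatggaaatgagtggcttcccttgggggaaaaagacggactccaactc

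The Igf1r window held 2 GC boxes, which 35.7% of all 32851 windows hold, and was 76.0% G and C, against a median of 52.7%. The Igfbp6 window held 1 TATAAA match, starting at position -148 on the opposite strand (13.6% of windows hold one). The Igf1 window held 1 match to TGANTCA, whose middle base is open, reading TGAATCA and starting at -37 (7.81% of windows). Among the members this pattern was also matched in 1 window of Igfbp2, reading TGAGTCA and starting at -39. Across the 9 member genes, 13 windows were searched. None held the full cAMP response element, the Nr4a motif or the C/EBP motif, found in 1.79%, 1.51% and 10.8% of all windows. The short element TGACG was in 3 windows, 1 of Igf2r with 3 matches and 2 of Igf2, beside 20.8% of all windows. The Egr motif was in 1, that of Igf2r, beside 5.55%. A match is a run of letters and not a shown binding site, and no match says only that these letters are absent from these windows.

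Among the receptors, Igf1r, which transmits the signal of both ligands, stood lower on every PTH array than on any 0 min array. Its probe set (102224_at, Entrez gene 16001) read 836, 827 and 765 at 0 min, 675, 624 and 620 at 30 min, and 512, 644 and 697 at 60 min. The 3 arrays of either PTH time thus lay wholly below those of 0 min, while the 2 PTH times overlapped. Such separation downward was found for 15.3% of all tested probe sets at 30 min and 20.7% at 60 min, and among the 9 members for Igf1r alone at each time. The mean was 640 ± 30.4 at 30 min and 618 ± 94.9 at 60 min, against 809 ± 38.5 at 0 min (SD, n = 3 arrays each). The log2 fold change was -0.33 (SE 0.13, 95% confidence interval -0.61 to -0.06) at 30 min, with a limma adjusted p of 0.202. At 60 min it was -0.39 (SE 0.13, interval -0.67 to -0.12), or 0.761-fold, with a limma adjusted p of 0.0609. Over 18 alternative settings that p at 60 min lay between 0.0458 and 0.185 and was under 0.05 in 1, cyclic loess normalization. With single arrays left out, the log2 fold change at 60 min ran from -0.48 (without 60 min replicate c) to -0.27 (without 60 min replicate a). In RNA from whole cultures, fewer cells of a type and less RNA per cell cannot be told apart.

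Igf2r, the mannose 6-phosphate receptor that clears IGF2, varied least of the tested members within a time. Its probe set (95117_at) read 398, 374 and 387 at 0 min, 420, 336 and 383 at 30 min, and 383, 356 and 379 at 60 min. The times overlapped throughout. The log2 fold changes were -0.03 (interval -0.28 to 0.22) at 30 min and -0.05 (interval -0.30 to 0.20) at 60 min, with limma adjusted p of 0.908 and 0.803. The 60 min intervals of Igf2r (-0.30 to 0.20) and Igf1r (-0.67 to -0.12) overlapped, and the difference between both receptors was not tested.

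**Figure D1:**
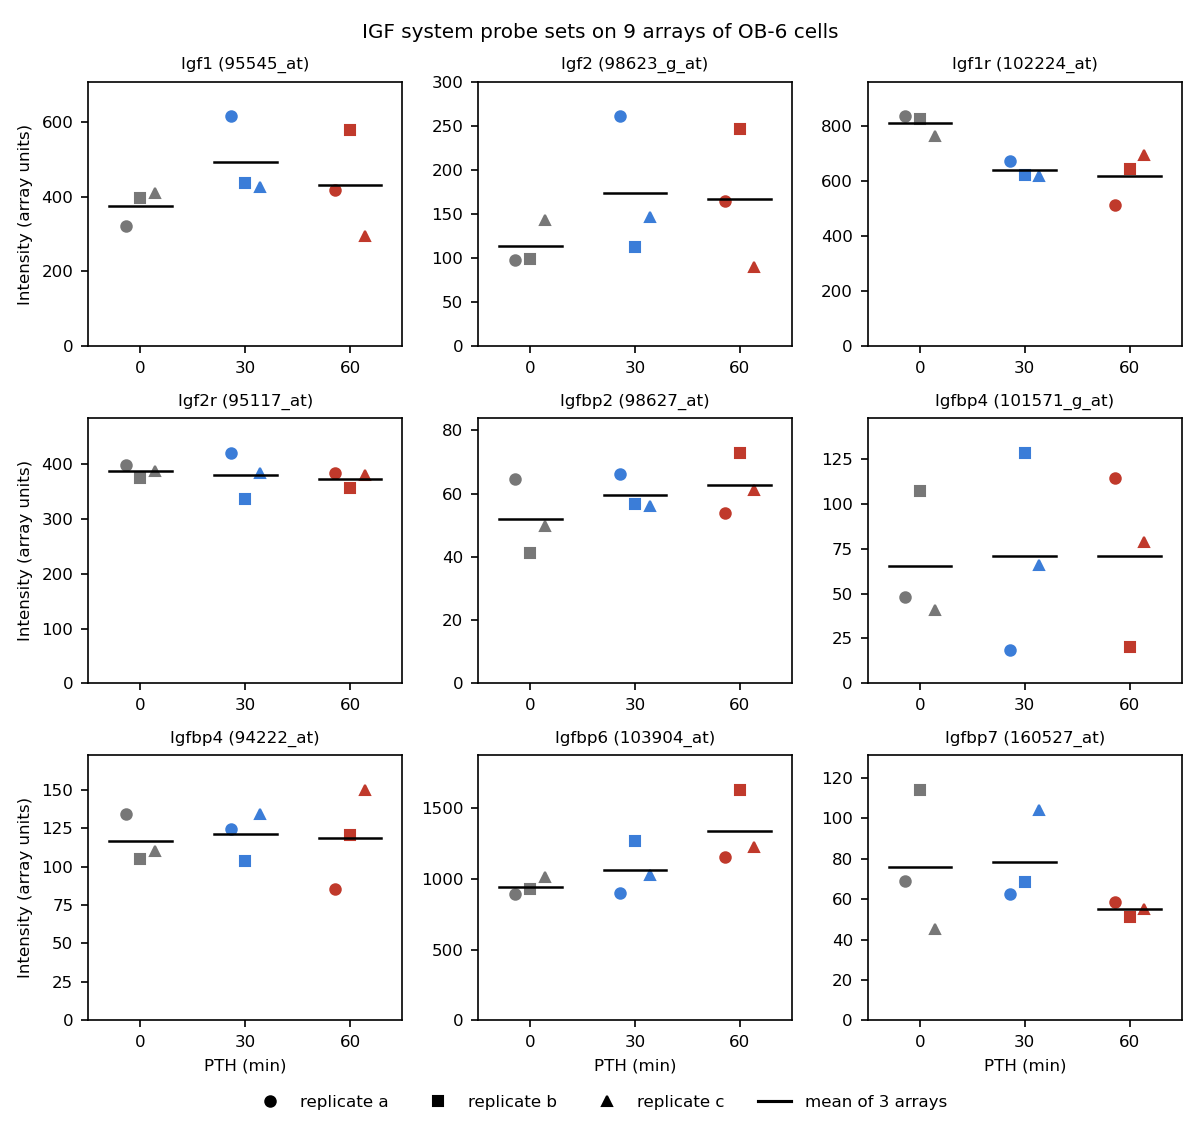
Intensity (array units, each axis from 0) of the 9 tested IGF system probe sets against minutes of PTH, with 1 point per array (circle, square and triangle for replicates a, b and c) and a line at the mean of 3 arrays. Igf1r lies lower at 30 and 60 min than at 0 min on every array, Igfbp6 lies higher at 60 min, and the other panels show overlap with 0 min at 60 min.

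Both ligand genes spread widely between arrays of the same time. Igf1 was represented by a bright and a dim probe set. The bright one (95545_at) read 321, 395 and 410 at 0 min, 615, 437 and 425 at 30 min, and 418, 577 and 295 at 60 min. At 30 min all 3 arrays lay above the highest 0 min array, as was true for 15.3% of all tested probe sets, and at 60 min the lowest of all 9 arrays was replicate c. Its log2 fold change was 0.37 (SE 0.23, interval -0.13 to 0.87) at 30 min and 0.15 (SE 0.23, interval -0.35 to 0.65) at 60 min, with limma adjusted p of 0.415 and 0.696. With single arrays left out, the value at 30 min ran from 0.20 (without 30 min replicate a) to 0.46 (without 30 min replicate c). That at 60 min ran from -0.085 (without 60 min replicate b) to 0.39 (without 60 min replicate c), and was 0.043 without 0 min replicate a. The dim probe set (95546_g_at) lay between 21.4 and 49.8, above 44.7 on 1 array, and was not tested.

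Igf2, the ligand that drives fetal growth, also varied widely. Its probe set 98623_g_at read 98.2, 98.8 and 144 at 0 min, 261, 113 and 147 at 30 min, and 165, 246 and 90.5 at 60 min. The highest array at 30 min was replicate a, at 60 min replicate b, and the PTH times overlapped with 0 min. The log2 fold change was 0.50 (SE 0.35, interval -0.27 to 1.28) at 30 min and 0.44 (SE 0.35, interval -0.34 to 1.21) at 60 min, with limma adjusted p of 0.46 and 0.423. With single arrays left out, it ran from 0.19 (without 30 min replicate a) to 0.75 (without 30 min replicate b) at 30 min, and from 0.12 (without 60 min replicate b) to 0.79 (without 60 min replicate c) at 60 min. The second probe set of Igf2 (98622_at) lay between 3.30 and 9.90 on all arrays.

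**Figure D2:**
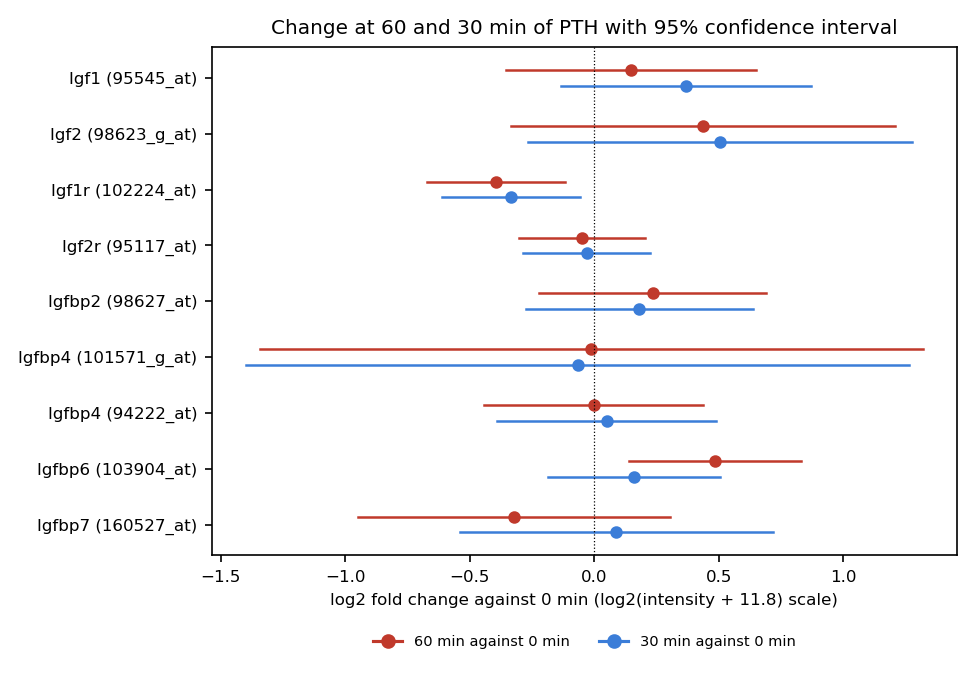
Log2 fold change against 0 min (horizontal axis, log2(intensity + 11.8) scale) of the 9 tested probe sets at 60 min (red) and 30 min (blue), with limma's 95% confidence interval. The intervals of Igf1r at both times and of Igfbp6 at 60 min leave out 0 before adjustment for 7884 tests, and those of the Igfbp4 probe set 101571_g_at are the widest.

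Of the binding proteins, Igfbp6, which binds IGF2 in preference to IGF1, stood higher at 60 min. Its probe set (103904_at, Entrez gene 16012) read 892, 927 and 1012 at 0 min, 898, 1266 and 1031 at 30 min, and 1156, 1630 and 1227 at 60 min. All 3 arrays at 60 min lay above the highest 0 min array, as for 20% of all tested probe sets, whereas 30 min overlapped with both other times. The mean was 1338 ± 256 at 60 min, against 944 ± 61.6 at 0 min (SD, n = 3 arrays each). The log2 fold change at 60 min was 0.48 (SE 0.16, interval 0.14 to 0.83), or 1.40-fold, with a limma adjusted p of 0.0641. At 30 min it was 0.16 (SE 0.16, interval -0.19 to 0.51), with an adjusted p of 0.598, and between 60 and 30 min 0.32 (interval -0.02 to 0.67), with an adjusted p of 0.562. The value at 30 min ran from 0.030 (without 30 min replicate b) to 0.27 (without 30 min replicate a), and that between 60 and 30 min from 0.17 (without 60 min replicate b) to 0.45 (without 30 min replicate b). Over 18 alternatives the adjusted p at 60 min lay between 0.0273 and 0.187 and was under 0.05 in 3. The array 60 min replicate b was the highest for Igfbp6 and had the lowest median correlation with the other arrays. Without it, the log2 fold change at 60 min was 0.33 and the limma adjusted p 0.165. Without 60 min replicate a, the log2 fold change was 0.58 and the limma adjusted p 0.0395.

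Igfbp4, which mostly inhibits IGF action in bone until it is cleaved, had 3 probe sets that did not run together. Probe set 94222_at read 134, 105 and 110 at 0 min, 125, 104 and 134 at 30 min, and 85.4, 120 and 150 at 60 min, with complete overlap of the times. Its log2 fold changes were 0.05 (interval -0.39 to 0.49) at 30 min and -0.0013 (interval -0.44 to 0.44) at 60 min. Probe set 101571_g_at read 48.2, 107 and 41.1 at 0 min, 18.4, 128 and 65.6 at 30 min, and 114, 20.4 and 78.8 at 60 min. Within a time its log2 values had an SD of 0.95, the highest of the tested members, against 0.25 for 94222_at, and its interval at 60 min ran from -1.34 to 1.32. The third probe set (101570_at) lay between 4.60 and 27.9 and was not tested. Limma adjusted p of both tested probe sets lay between 0.911 and 0.997.

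Igfbp2, another carrier made by osteoblasts, read 64.6, 41.3 and 49.6 at 0 min, 66.1, 56.6 and 56.2 at 30 min, and 53.9, 72.8 and 61.2 at 60 min (98627_at). The times overlapped, and the log2 fold changes were 0.18 (interval -0.28 to 0.64) at 30 min and 0.23 (interval -0.22 to 0.69) at 60 min, with limma adjusted p of 0.654 and 0.469. With single arrays left out they ran from 0.058 (without 0 min replicate b) to 0.32 (without 0 min replicate a) at 30 min, and from 0.11 to 0.37 without the same arrays at 60 min. Igfbp7, a related protein that binds IGFs only weakly, read 69.0, 114 and 45.2 at 0 min, 62.8, 68.7 and 104 at 30 min, and 58.7, 51.4 and 54.9 at 60 min (160527_at). The 60 min arrays were close to each other and lay wholly below those of 30 min, as for 6.49% of all tested probe sets, but within the spread of 0 min. The log2 fold change between 60 and 30 min was -0.41 (SE 0.28, interval -1.04 to 0.22), with a limma adjusted p of 0.627, and ran from -0.53 (without 30 min replicate a) to -0.22 (without 30 min replicate c) with single arrays left out. Against 0 min it was -0.32 (interval -0.95 to 0.31) at 60 min, and ran from -0.60 (without 0 min replicate c) to -0.024 (without 0 min replicate b) with single arrays left out. At 30 min it was 0.09 (interval -0.54 to 0.72), and from -0.19 to 0.39 without the same arrays. Igfbp3, the main carrier of IGFs in serum, lay between 1.90 and 10.3 with one probe set (95082_at) and between 6.998 and 18.2 with the other (95083_at), below 44.7 on all 9 arrays.

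The same arrays stood at the extremes of several members. The array 30 min replicate a was the highest of the 9 for Igf1 and Igf2 (98623_g_at), and 60 min replicate b was the second highest for both. The same 2 arrays were the lowest and second lowest for the Igfbp4 probe set 101571_g_at. Over all tested probe sets, the deviations of these 2 arrays from their group means had a Pearson correlation of -0.27, a description over probe sets that share the 2 arrays. Whether these array deviations have a part in the values of the ligands was not tested.

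**Figure D3:**
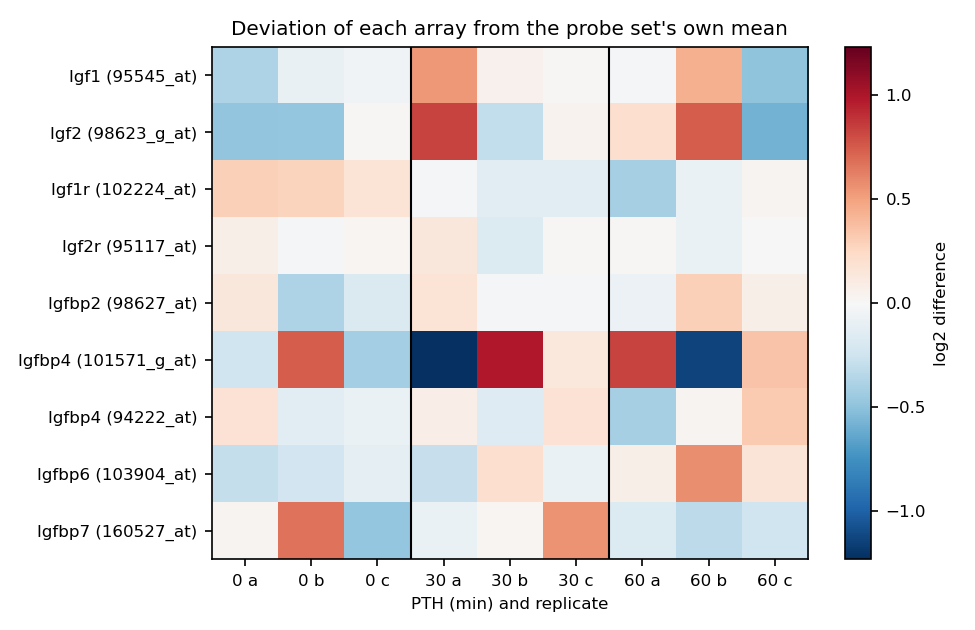
Log2 value of each array minus the probe set's own mean over 9 arrays (colour scale, red above and blue below the mean), for 9 tested probe sets (rows) and the arrays by minutes of PTH and replicate (columns, black lines between times). Igf1 and Igf2 are reddest on 30 min replicate a and 60 min replicate b, where Igfbp4 (101571_g_at) is bluest.

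The patterns most like that of Igf1r, the member with the smallest F test p, belonged to Smap1, Slc22a21, Rpf1, Bmp1 and Ddx17. Likeness was the root mean square difference of log2 values, each centred on its own mean, over the 9 arrays. It ran from 0.098 for Smap1 to 0.13 for Ddx17, where the values of Igf1r itself had a root mean square of 0.21 about their mean. Of these genes Ddx17 passed the test at 60 min, with a log2 fold change of -0.41 and a limma adjusted p of 0.039.

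Downstream of the receptors and around the ligands, 78 further genes were listed, of which 57 had a probe set and 41 were tested by their brightest one. At 60 min 5 of the 41 were called, 1 higher and 4 lower, beside 4.6% higher and 9.1% lower among 5936 genes, or 13.7% in all. At 30 min 0 of 41 were called by limma, beside 1.06% of genes (0.573% higher, 0.489% lower), and 10 of 41 had an unadjusted p under 0.05, beside 18.2% of genes. At 60 min 10 of 41 also had an unadjusted p under 0.05, beside 34.2% of genes. The median log2 fold change of the 41 was 0.03 at 30 min and 0.04 at 60 min, beside 0.05 and 0.04 over all genes.

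The calls at 60 min in the PI3 kinase, Akt and mTOR arm were 2 lower and 1 higher of 16 tested. Pik3r1, the regulatory subunit p85 alpha that docks the kinase to insulin receptor substrates, fell by 1.30 on the log2 scale (SE 0.24, limma adjusted p = 0.012). It read 647, 666 and 667 at 0 min, 507, 344 and 383 at 30 min, and 389, 177 and 258 at 60 min. Every PTH array thus lay below every 0 min array. Of all tested probe sets 15.3% lay wholly lower at 30 min and 20.7% at 60 min. The call of Pik3r1 was lost without 0 min replicates a or b. Pik3ca, the catalytic subunit p110 alpha, fell by 0.95 (SE 0.26, limma adjusted p = 0.0399) to 81.1 ± 39.0 at 60 min, against 158 ± 10.7 at 0 min (SD, n = 3 arrays each), and its second probe set stood at -1.35 (limma adjusted p = 0.0228). The call of the first was kept in 8 of 18 alternatives. It was lost without the intensity filter, after cyclic loess, without a variance trend and with only the 2 groups compared. With single arrays left out, it was lost without any 0 min array, 30 min replicate c or 60 min replicates b or c. Gsk3a, a kinase that Akt inhibits, rose by 0.40 on the log2 scale (SE 0.10), with adjusted p = 0.0262 by limma, to 2188 ± 211, against 1657 ± 67.1 at 0 min. It kept its direction in all 18 alternatives and its call in 13. The call was lost without any 0 min array, after cyclic loess and without a variance trend.

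In the list of carriers and binding protein proteases, 4 of 9 tested genes had a log2 fold change below 0 at 60 min. Of these 1 was called lower, beside 9.1% of all genes. This was Adam9, a membrane metalloprotease known to cleave IGFBP5 in human osteoblasts, which read 566, 614 and 573 at 0 min, 386, 259 and 294 at 30 min, and 300, 151 and 248 at 60 min. It fell by 1.33 (SE 0.22, limma adjusted p = 0.00912), and the call was kept in all 18 alternatives, with log2 fold changes between -1.54 and -1.06. At 30 min the log2 fold change was -0.90, with a limma adjusted p of 0.0826. The serum carrier gene Igfals and the liver gene Igfbp1 were too dim to be tested. Of 5 growth hormone axis genes, Jak2, the kinase that the growth hormone receptor activates, fell by 0.99 (SE 0.21, limma adjusted p = 0.0183) to 89.0 ± 27.6 at 60 min, against 183 ± 12.1 at 0 min, a call lost without any 0 min array.

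No gene was called among 7 tested insulin receptor and substrate genes or 4 Ras and MAP kinase genes. Their brightest members were Shc1 (log2 fold change 0.05 at 60 min), Ptpn1 (0.32), Nras (-0.41) and Map2k1 (-0.30). Of the genes listed as partners of Igf transcripts, Igf2bp1 and Ins2 had a probe set, and both were too dim to be tested. The 4 called falls in these lists had larger log2 fold changes in size than any tested IGF system probe set. These 4 were picked from 41 genes by passing the threshold, which favours large changes, so the sizes do not compare the lists with the members. Like the values of Igf1r, the 4 falls were all measured against the same 3 arrays at 0 min.

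**Figure D4:**
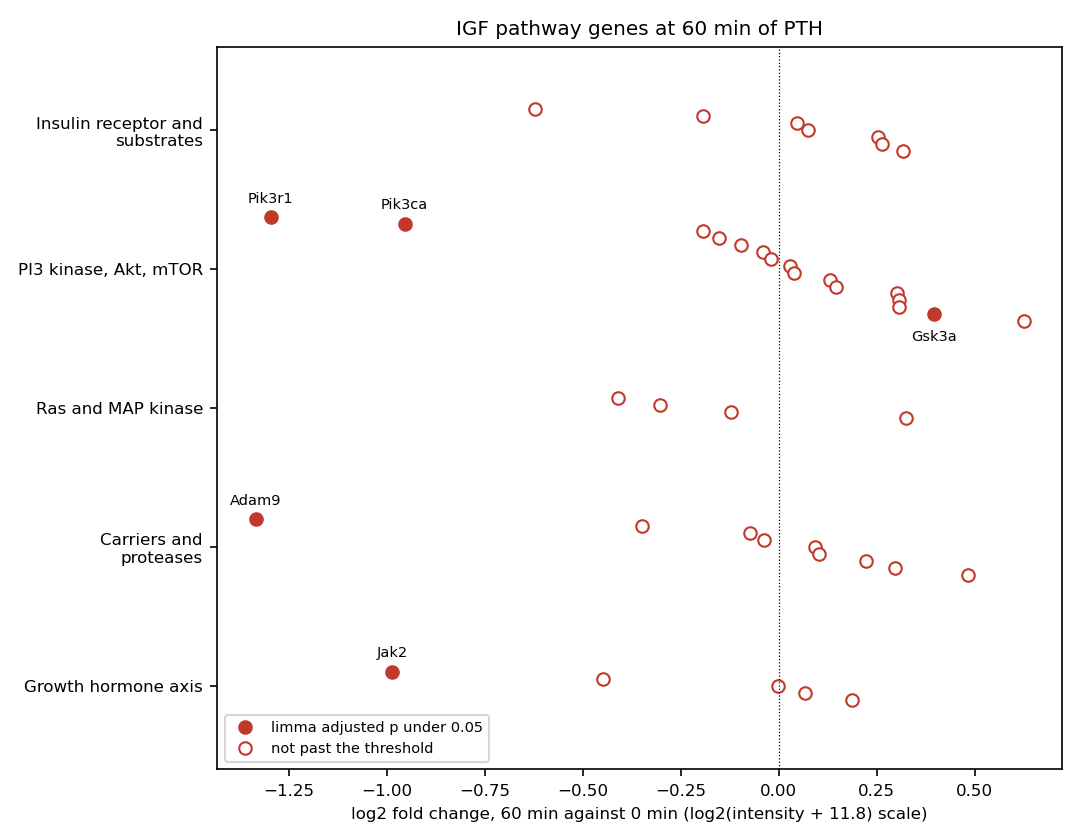
Log2 fold change at 60 min against 0 min (horizontal axis, log2(intensity + 11.8) scale) of the 41 tested pathway genes, by list; height within a list only separates the points. Filled circles passed the threshold: Pik3r1, Pik3ca, Adam9 and Jak2 lie left of 0 and Gsk3a right of it.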

How the data were processed

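For each array, the authors deposited an intensity for every probe set, from 0.1 to 8605; how the authors summarised and scaled these intensities is not given in the sources used here. Without the top and bottom 2% of probe sets, every array has a mean of 250.1 or 250.2, so the values were used as deposited. They were converted to log2(intensity + 11.8), the 20th percentile of all values. Names came from the platform annotation (10833 probe sets with 1 symbol, 396 with several), checked against GRCm38.p6 gene identifiers, with 0 symbols updated. The 66 control probe sets were left out, and 7884 probe sets were tested with limma 3.58.1 in R 4.3.3 (1 mean per time, all 9 arrays, variance trend, 6 residual degrees of freedom), adjusted p under 0.05 being a call. The fit was tested on simulated data. With 3 arrays against 3, an exact permutation test cannot give a p under 0.1. The number of arrays limits the precision.

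The members, lists and tests were chosen with earlier results of these data known. Every member was named. Of each pathway list, up to 4 called genes or else the 2 brightest were named, together with the 5 genes of most similar pattern to the member with the smallest F test p. Genes whose probe sets differ, in the closing section, were chosen after their values were seen. Alternatives were 2 other constants, no filter, 3 normalizations, no variance trend, 2 groups alone, a replicate block, and leaving out single arrays. Plots used matplotlib 3.10.9 (Python 3.11.15).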

Additional observations from a re-analysis of the deposited data

How the results depend on the processing

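The count of called IGF system probe sets stayed at 0 under all alternatives at 30 min, for 60 against 30 min and in the F test. At 60 min it was 1 after cyclic loess (Igf1r, log2 fold change -0.45, limma adjusted p = 0.0458) and 1 with the replicate block (Igfbp6, limma adjusted p = 0.0273), and 0 to 1 with an array left out, where Igfbp6 was called without 30 min replicate a (0.0498) or 60 min replicate a (0.0395). Called pathway genes at 30 min, 0 as reported, were 5 with only the 2 groups compared, 2 with the replicate block and 0 to 5 with an array left out, the 5 being without 60 min replicate b; leaving out 30 min replicate a gave 1. At 60 min, 5 as reported, they were 3 after cyclic loess and 3 without a variance trend (0 higher in both), 6 after quantile normalization (2 higher), 7 after 75th percentile scaling and 7 with the replicate block (3 higher in both), and 1 to 6 with an array left out, with 1 without 0 min replicates a or b and 2 without replicate c. No label says that the replicate letters pair arrays, and they were not taken to. Deviations from the group means correlated above 0.1 in 2 of 9 same-letter pairs (range -0.128 to 0.304) and in 1 of 18 other pairs (-0.266 to 0.179). The 2 highest of all, 0.304 and 0.251, were between 30 and 60 min replicates a and between replicates b.

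Of 360 alternative log2 fold changes of the members, 334 kept sign and side of the threshold, 4 passed it as given above and 22 changed sign. Igfbp4 101571_g_at turned to 0.0022 at 30 min and 0.028 at 60 min with a constant of 50, and at 60 min to 0.088 after quantile normalization, 0.039 after 75th percentile scaling and 0.073 after cyclic loess. Igfbp4 94222_at turned at 60 min to 0.0035 with a constant of 50, 0.13 after quantile normalization, 0.061 after 75th percentile scaling and 0.076 after cyclic loess, and Igf2r at 60 min to 0.016 after 75th percentile scaling. With an array left out, the ranges were -0.58 to 0.53 at 30 min and -0.42 to 0.57 at 60 min for Igfbp4 101571_g_at, -0.023 to 0.15 and -0.17 to 0.19 for 94222_at, -0.10 to 0.052 at 30 min for Igf2r, -0.19 to 0.39 at 30 min for Igfbp7 and -0.085 to 0.39 at 60 min for Igf1. The cause of these shifts was not tested. Scaling moved the median of all probe sets by under 0.1, to 0.096 at 60 min at most.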

Other observations

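Probe sets of 1 pathway gene did not always give the same value at 60 min. The brighter probe set of Ghr, the growth hormone receptor, stood at a log2 fold change of -0.0016, while its dimmer one fell by 0.84 (limma adjusted p = 0.0312). Both probe sets of the kinase gene Mtor were tested and stood at 0.30 and -0.12, and the 2 tested ones of Tsc2, an inhibitor of that kinase, at -0.10 and 0.29, none of them called. The 2 probe sets of Bad, a cell death gene whose product Akt phosphorylates, stood at 0.62 and -0.03.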
